A study of Mus musculus with 8 samples.

Results

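The 10 genes described here carry out or drive antigen presentation by class I molecules of the major histocompatibility complex, and were followed in the dorsal hippocampus of mice across an ACSS2 knockdown vector and spatial object training. The genes were chosen by name, with earlier results of these data known. They are the class I light chain B2m, the heavy chains H2-K1 and H2-D1, the peptide loading genes Tap1, Tap2 and Tapbp, the immunoproteasome subunits Psmb8, Psmb9 and Psmb10, and the class I transactivator Nlrc5. All 10 were found among the 24498 genes of the table. The mice were male C57BL/6J animals of 10 to 12 weeks, and each received an adeno-associated virus (AAV2/9) in the dorsal hippocampus. The knockdown virus carried a U6-driven hairpin against Acss2, which encodes an enzyme that makes acetyl-CoA from acetate, together with EGFP under the CMV promoter. The control virus carried EGFP under the CMV promoter with no hairpin cassette named, so an effect of the hairpin itself and one of lower Acss2 cannot be told apart.

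There were 4 groups of 2 libraries of polyadenylated RNA each. The knockdown vector was studied in untrained mice kept in the home cage (libraries KD.253 and KD.255, after the deposited column names) and in mice trained by spatial object recognition 30 min before death (KD.249 and KD.251). The control vector was studied in untrained mice (eGFP.254 and eGFP.268) and in trained mice (eGFP.250 and eGFP.266). The labels do not give the number of mice behind a library, so p-values measure only the spread between libraries, which may be technical.

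Class I molecules hold peptides at the cell surface, where cytotoxic T cells read them. The peptides are cut by the proteasome, whose catalytic subunits can be replaced by the interferon-inducible immunoproteasome subunits, and are pumped into the endoplasmic reticulum by the transporter made of TAP1 and TAP2. Tapasin (Tapbp) bridges this transporter to a heavy chain paired with beta-2 microglobulin (B2m), and NLRC5 drives transcription of most of these genes. In the healthy brain class I levels are low in neurons, and interferon raises the pathway in many cell types.

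Depth was uneven within the knockdown groups. Libraries KD.255 and KD.251 held 272456 and 1484318 reads in genes, against 6537749 to 9863728 in the other 6. Values are normalized read counts, that is reads divided by 1 size factor per library. Each read weighed 15.6 normalized counts in KD.255 and 2.88 in KD.251, against 0.444 to 0.659 elsewhere, so the 10 genes rested on 0 to 75 reads in KD.255 and on 3 to 221 reads in KD.251. A count of 0 allows up to 46.7 normalized counts in KD.255. The targeted gene Acss2 stood at 25.0, 15.6, 25.6 and 57.7 in KD.253, KD.255, KD.249, KD.251, against 58.2 to 87.4 in the control libraries. Its value in KD.251 was close to the lowest control. Markers of hippocampal neurons summed to between 46137 and 58241 normalized counts per knockdown library, against 52732 to 67023 per control library.

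Promoter windows from RefSeq (GRCm38.p6, from 250 bases before to 50 after each annotated start) were at hand for 8 of the 10 genes. They are shown because class I genes share known control elements. The pieces below run 5′ to 3′ on the strand of the gene. Capitals mark every match, on either strand, to 1 of 6 short motifs: the kappaB element of class I enhancers (GGGGATTCC), the class I interferon response sequence (AAGTGAAA, or TTTCACTT when it lies on the other strand), the interferon-stimulated response core (GAAANNGAA), the gamma-activated site (TTCNNNGAA), the X2 box core (TGACG) and the Y box core (CCAAT, or ATTGG on the other strand). The motifs were chosen with the windows already seen, and some lengths of sequence were left out.
H2-K1, chr17:34000348-34000472, minus strand: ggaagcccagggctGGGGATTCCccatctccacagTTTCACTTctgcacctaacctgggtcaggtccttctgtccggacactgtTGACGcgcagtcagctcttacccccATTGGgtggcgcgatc
H2-D1, chr17:35262909-35263033, plus strand: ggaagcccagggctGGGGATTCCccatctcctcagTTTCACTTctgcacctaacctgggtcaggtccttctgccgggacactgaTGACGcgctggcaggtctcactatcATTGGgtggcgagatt
B2m, chr2:122147537-122147661, plus strand: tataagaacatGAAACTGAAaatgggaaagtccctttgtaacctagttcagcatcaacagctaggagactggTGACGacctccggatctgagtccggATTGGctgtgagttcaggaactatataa
Tap1, chr17:34187331-34187480, plus strand: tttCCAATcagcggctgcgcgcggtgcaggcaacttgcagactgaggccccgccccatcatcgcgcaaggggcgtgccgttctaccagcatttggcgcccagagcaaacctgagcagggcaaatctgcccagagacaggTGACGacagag

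The heavy chain promoters H2-K1 and H2-D1 carried the same 4 motifs in the same order and at the same spacing, with 21, 49 and 25 bases between successive first letters. Their windows were identical in 206 of 228 aligned columns (90.4%). B2m held the X2 and Y cores at the same spacing of 25 bases. The kappaB element was in both heavy chain windows and in 0.25% of all 32851 mouse promoter windows. The class I interferon response sequence was in the same 2 genes and in 1.6% of all windows, and the interferon-stimulated response core was in B2m and in 8.56%. The gamma-activated site was in Psmb8 (8.3% of all windows). The 2 shortest cores are common letters: TGACG was in 5 of the 8 windows and 20.8% of all, and CCAAT in 6 of the 8 and 37.4% of all. The Psmb10 window held none of the 6. Tap1 and Psmb9 lie head to head, and their windows share 275 of 300 bases read on opposite strands, so their matches are not separate.

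**Figure D1:**
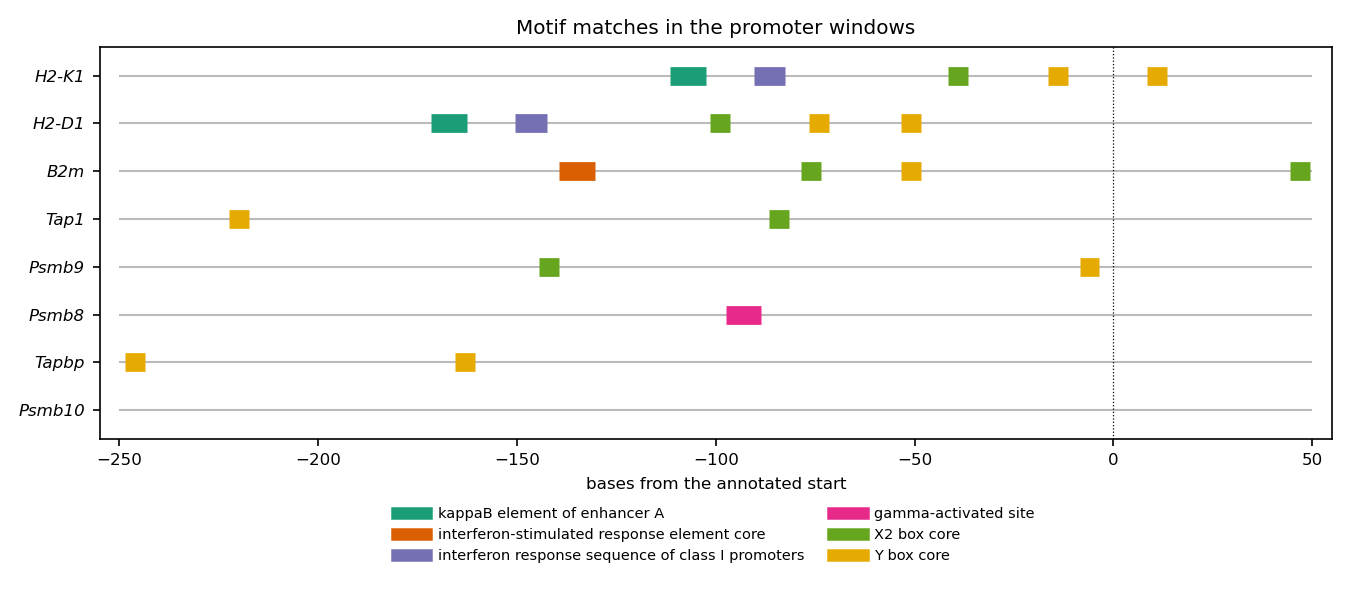
Matches to the 6 motifs (coloured blocks) along the promoter window of each of 8 genes; the x axis gives bases from the annotated start, negative upstream. The H2-K1 and H2-D1 rows show the same order of kappaB element, interferon response sequence, X2 core and Y core, shifted by their annotated starts, and the Psmb10 row is empty.

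The first comparison set the knockdown vector against the control vector over both training states. The class I light chain and both classical heavy chains were several fold higher in the knockdown libraries. B2m, on chromosome 2 (GRCm38, 122147686 to 122153083, plus strand), stood at 2923, 1166, 2675 and 638 normalized counts in KD.253, KD.255, KD.249, KD.251, against 492, 274, 289 and 491 in eGFP.254, eGFP.268, eGFP.250 and eGFP.266. Every knockdown library lay above every control library, and KD.251 was the lowest of its vector. The means were 1851 ± 1121 with the knockdown vector and 386 ± 121 with the control vector (SD, n = 4 each). The difference of log2(normalized count + 1) was 2.06 (SE 0.46), which limma did not pass over the 12681 genes tested (Benjamini-Hochberg adjusted p = 0.242). The quasi-likelihood test of edgeR on the recovered reads gave 2.299 (adjusted p = 0.0175).

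H2-K1, one of the classical heavy chains (chromosome 17, 33996017 to 34000347, minus strand), had 570, 171, 641 and 113 normalized counts in the same order of knockdown libraries, against 77.9, 50.6, 66.7 and 72.7 in the control libraries. The groups did not overlap, and the knockdown values fell into a high pair of deep libraries and a lower pair of shallow ones, the value of KD.255 resting on 11 reads. On the log2 scale H2-K1 differed by 2.12 (SE 0.52, limma adjusted p = 0.337; edgeR 2.64, adjusted p = 0.00901).

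H2-D1, the other classical heavy chain present in this strain (chromosome 17, 35262730 to 35267499, plus strand), had 177, 124, 232 and 104 normalized counts in the knockdown libraries, against 30.2, 27.9, 40.3 and 27.3 in the control libraries. The lowest knockdown value, 104 in KD.251, was well above the highest control value, 40.3 in eGFP.250. H2-D1 was the only 1 of the 10 genes that passed limma, at 2.25 (SE 0.28, adjusted p = 0.0210); the background of genes passing higher by limma was 0.103%. This call held without KD.255 (adjusted p = 0.0459) and without KD.251 (adjusted p = 0.00309) and was lost without any single one of KD.253 (adjusted p = 0.0845), KD.249 (0.0939), eGFP.254 (0.0798), eGFP.268 (0.110), eGFP.250 (0.120) or eGFP.266 (0.0718), with differences of 2.03 to 2.49 over all 8 omissions. By edgeR H2-D1 passed with all libraries (2.43, adjusted p = 8.9e-04) and in each of the 8 fits with a library left out.

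The proportions of the light and heavy chains were compared within each library, without a test. The ratio of B2m reads to H2-K1 reads was 5.12, 6.57, 4.17 and 5.61 in KD.253, KD.255, KD.249, KD.251, against 6.29, 5.40, 4.31 and 6.73 in the control libraries, so the ranges overlapped. H2-K1 took 76.3%, 57.9%, 73.4% and 52.0% of the reads of the 2 heavy chains in the knockdown libraries, against 72.0%, 64.4%, 62.3% and 72.7% in the control libraries. Both deep knockdown libraries lay above every control in this share and both shallow ones below, so the overlap of the vectors rests on KD.255 and KD.251. The exact 95% interval for KD.255 ran from 33.5% to 79.7%, and these intervals cover counting error only. Heavy chain genes resemble each other: 9.63% of the 50-base stretches of H2-K1 exons and 12.8% of those of H2-D1 also occur in another gene, while 0% of those of B2m do. The authors' counting left out 10.6% to 13.8% of reads per library as not uniquely aligned, so the split between heavy chains is uncertain.

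**Figure D2:**
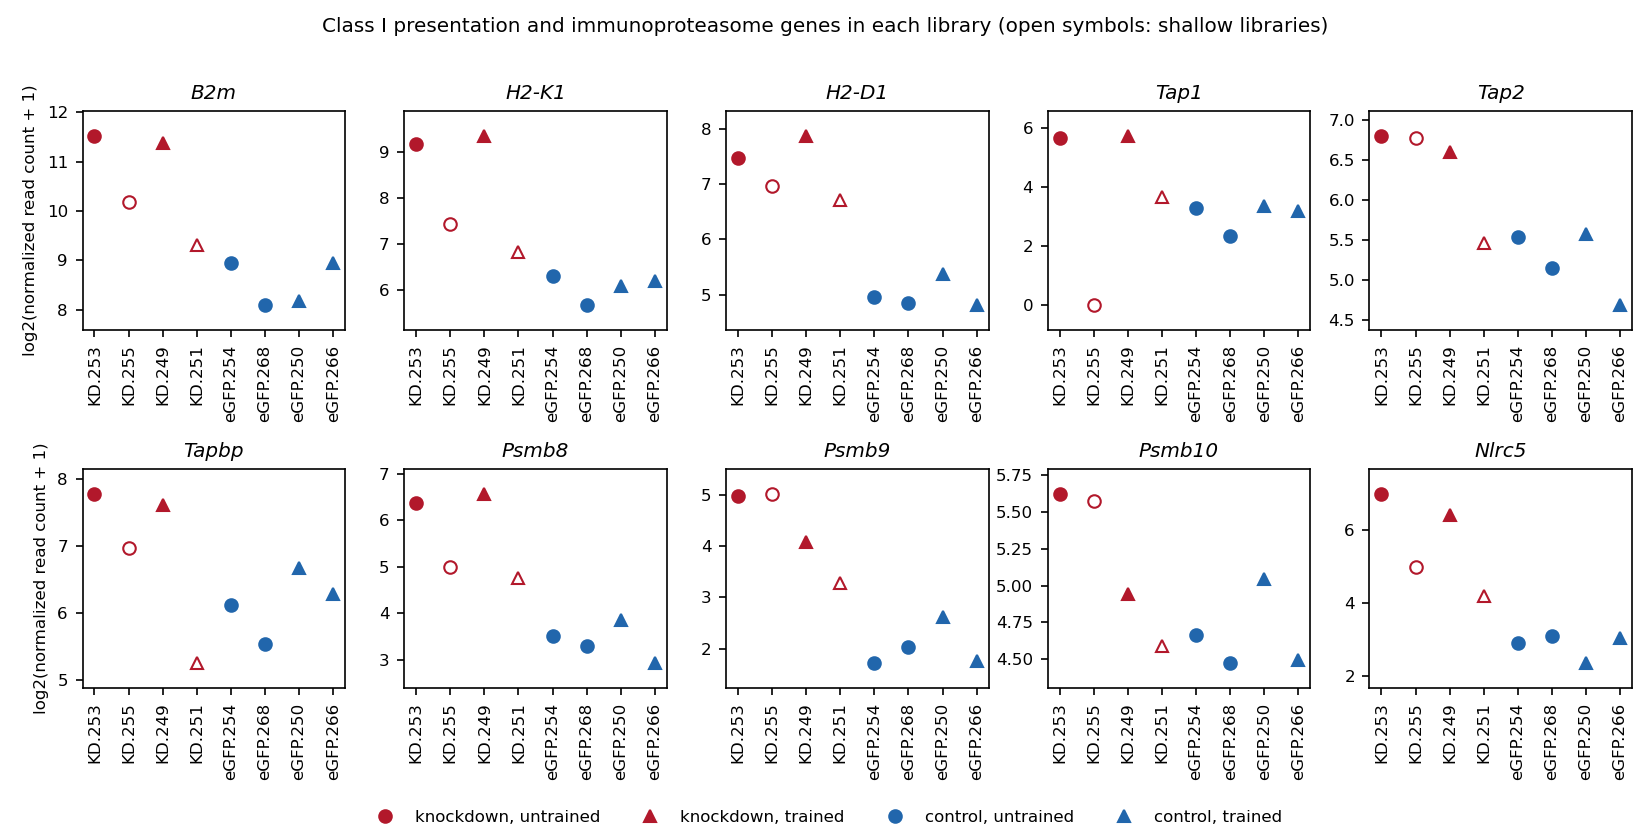
Log2(normalized read count + 1) of each of the 10 genes in the 8 libraries, with knockdown libraries (red) on the left and control libraries (blue) on the right; circles are untrained and triangles trained mice, open symbols are the shallow libraries KD.255 and KD.251, and the y axis differs between panels. In B2m, H2-K1, H2-D1, Psmb8, Psmb9 and Nlrc5 all 4 knockdown points lie above all 4 control points; in Tap1 the point at 0 is KD.255.

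The peptide loading genes were less uniform. Tap1 encodes one chain of the peptide transporter (chromosome 17, 34187553 to 34197225, plus strand). It had 49.4, 0, 51.7 and 11.5 normalized counts in KD.253, KD.255, KD.249, KD.251, against 8.72, 3.99, 9.31 and 8.13 in the control libraries. KD.253, KD.249 and KD.251 lay above every control, and the value of 0 in KD.255 allows up to 46.7. That value weighed on the log scale: limma gave 0.72 (SE 1.13, adjusted p = 0.928), whereas edgeR, which weights by reads, gave 2.34 (adjusted p = 0.0480).

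Tap2, the other chain of the transporter (chromosome 17, 34203527 to 34216321, plus strand), had 110.1, 109, 95.7 and 43.3 normalized counts in the knockdown libraries, against 45.4, 34.6, 46.5 and 24.9 in the control libraries. KD.253, KD.255 and KD.249 exceeded all controls, and KD.251 fell inside the control range. Tap2 differed by 1.17 on the log2 scale (SE 0.31, limma adjusted p = 0.421; edgeR 1.26, adjusted p = 0.0692), and neither test passed it. Tap1 made up 31.0%, 0%, 35.1% and 21.1% of the transporter reads in the knockdown libraries, against 16.1%, 10.3%, 16.7% and 24.6% in the control libraries. This share too overlapped only through the shallow libraries.

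Tapasin, encoded by Tapbp (chromosome 17, 33915899 to 33929292, plus strand), had 218, 124, 196 and 37.5 normalized counts in the knockdown libraries, against 68.6, 45.7, 101 and 77.5 in the control libraries. Here KD.251 was the lowest of all 8 libraries. For Tapbp the log2 difference was 0.75 (SE 0.51, limma adjusted p = 0.873; edgeR 1.11, adjusted p = 0.425). Without both shallow libraries Tapbp and Tap2 passed limma (background 1.49%) and edgeR (background 1.65%). KD.251 held the lowest knockdown value of both genes, so nothing is read from these calls.

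Among the immunoproteasome subunits, Psmb8 and Psmb9 were higher with the knockdown vector and Psmb10 overlapped between vectors. Psmb8 (chromosome 17, 34197721 to 34201454, plus strand), which takes the place of the constitutive subunit Psmb5, had 81.7, 31.1, 93.1 and 26.0 normalized counts in the knockdown libraries, against 10.5, 8.87, 13.4 and 6.70 in the control libraries. All knockdown values lay above all control values, although that of KD.255 was 2 reads. The log2 difference was 2.27 (SE 0.49, limma adjusted p = 0.224; edgeR 2.78, adjusted p = 0.00479).

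Psmb9 (chromosome 17, 34181987 to 34187764, minus strand), the counterpart of Psmb6, had 30.3, 31.1, 15.9 and 8.65 normalized counts in the knockdown libraries, against 2.33, 3.10, 5.17 and 2.39 in the control libraries. The groups did not overlap, on 2 reads in KD.255 and 3 reads in KD.251. Its log2 difference was 2.29 (SE 0.65, limma adjusted p = 0.512; edgeR 2.61, adjusted p = 0.0144). Psmb9 and Tap1 overlap in the annotation on opposite strands, and the strand setting of the counting is not given in the sources used here.

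Psmb10 (chromosome 8, 105935735 to 105938444, minus strand), the counterpart of Psmb7, had 48.1, 46.7, 29.7 and 23.1 normalized counts in the knockdown libraries, against 24.4, 21.3, 32.1 and 21.5 in the control libraries. The untrained knockdown libraries were the highest and the trained ones lay among the controls. Its log2 difference was 0.51 (SE 0.32, limma adjusted p = 0.873; edgeR 0.53, adjusted p = 0.774).

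Each immunoproteasome subunit was then set against the constitutive subunit it replaces, within each library, which needs no scaling between libraries (reads plus 0.5 in both terms). The ratio of Psmb8 to Psmb5 reads was 4.88, 1.67, 6.19 and 0.704 in KD.253, KD.255, KD.249, KD.251, against 0.649, 0.328, 0.688 and 0.547 in the control libraries. The separation rests on 0.704 in KD.251 (9 and 13 reads) against 0.688 in eGFP.250 (26 and 38 reads). On the log2 scale the mean ratio was 1.29 ± 1.45 with the knockdown vector and -0.91 ± 0.49 with the control vector (SD, n = 4 each), a difference of 2.20 (exact two-sided permutation test, p = 0.0286, the smallest it can give, and 0.0429 adjusted over the 3 pairs).

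The ratio of Psmb9 to Psmb6 was 0.193, 0.200, 0.100 and 0.0496 in the knockdown libraries, against 0.0136, 0.0175, 0.0284 and 0.0151 in the control libraries. All knockdown ratios were above all control ratios, by a log2 difference of 2.72 (exact two-sided permutation p = 0.0286, adjusted 0.0429, n = 4 each). The ratio of Psmb10 to Psmb7 was 0.0972, 0.137, 0.0552 and 0.0398 in the knockdown libraries, against 0.0457, 0.0368, 0.0598 and 0.0364 in the control libraries, which overlapped (log2 difference 0.75, exact two-sided permutation p = 0.171, n = 4 each). The constitutive subunits themselves differed by 0.09 (Psmb5), -0.08 (Psmb6) and -0.16 (Psmb7) on the limma log2 scale, and 0 of the 3 passed limma or edgeR. With any 1 library left out the smallest two-sided p among these ratios was 0.0571, and with both shallow libraries left out it was 0.133, so no ratio could pass there.

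**Figure D3:**
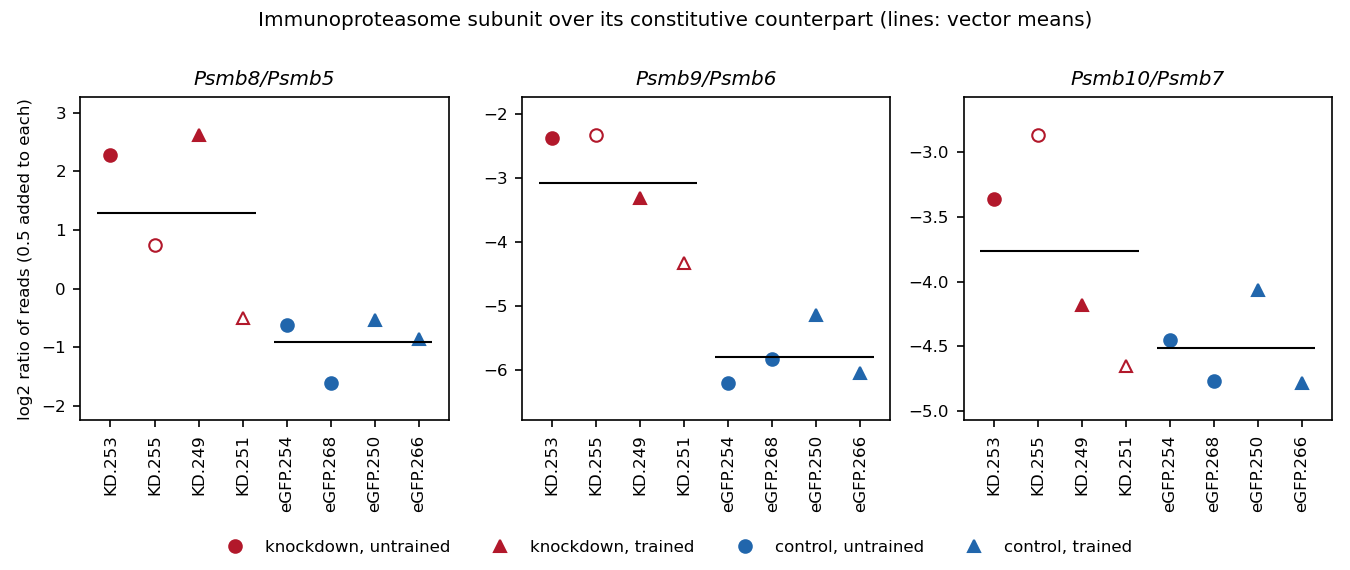
Log2 ratio of reads of each immunoproteasome subunit to its constitutive counterpart in the 8 libraries (0.5 reads added to each term); knockdown libraries are red and on the left, control libraries blue, open symbols are the shallow libraries, and lines are the mean of each vector. Psmb8/Psmb5 and Psmb9/Psmb6 separate the vectors, with KD.251 nearest to the controls, while Psmb10/Psmb7 overlaps.

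Nlrc5, the transactivator (chromosome 8, 94434356 to 94527272, plus strand), had the largest ratio of means of the 10 genes. It had 127, 31.1, 85.5 and 17.3 normalized counts in KD.253, KD.255, KD.249, KD.251, against 6.40, 7.54, 4.14 and 7.18 in the control libraries. All knockdown libraries lay above all controls, with 2 reads behind the value of KD.255 and 6 behind that of KD.251. The means were 65.1 ± 50.4 with the knockdown vector and 6.31 ± 1.53 with the control vector (SD, n = 4 each), a ratio of 10.3. The log2 difference was 2.81 (SE 0.60, limma adjusted p = 0.216; edgeR 3.60, adjusted p = 0.00258).

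Per kilobase of exon (union of GENCODE M21 exons), B2m was the most abundant of the 10 genes under both vectors, at 2152 normalized counts per kb with the knockdown vector and 449 with the control vector. In control libraries H2-K1 (22.8 per kb), Tapbp (20.2), Psmb10 (14.6), H2-D1 (12.2) and Tap2 (10.0) followed, and Psmb8 (2.92), Tap1 (1.38), Psmb9 (0.888) and Nlrc5 (0.743) were the lowest. In knockdown libraries H2-K1 (127 per kb) and H2-D1 (61.7) came before Tapbp (39.7), Tap2 (23.7) and Psmb10 (21.6), and Psmb8 (17.2), Nlrc5 (7.67), Psmb9 (5.87) and Tap1 (5.14) closed the order. Of the 10 genes, 4 (Tap1, Psmb8, Psmb9 and Nlrc5) had a control mean under 10 normalized counts. They entered the tests only through their knockdown values and so had to differ, which bears on every count over the 10 genes.

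Counted together, all 10 genes had a higher mean with the knockdown vector, and the median log2 difference was 2.09, against -0.03 over all 12681 genes. In 6 of the 10 every knockdown library lay above every control library, which held for 2.28% of all tested genes. By edgeR 7 of the 10 passed as higher (B2m, H2-K1, H2-D1, Tap1, Psmb8, Psmb9 and Nlrc5), against a background of 0.915%, by DESeq2 8 passed (the same 7 and Tap2), against 1.3%, and by limma-voom 9 passed, all but Psmb10, against 2.88%. Of the 6 genes with a control mean of at least 10, edgeR passed 3 (B2m, H2-K1 and H2-D1), against 0.568% of all 12499 such genes, and the same 3 separated the vectors, against 1.94%; the median log2 difference of the 6 was 1.62, against -0.04. The number passing edgeR depended on single libraries: it was 1 without KD.253 (H2-D1; background 0.134%), 2 without KD.249 (H2-D1 and Nlrc5; 0.213%), 3 without eGFP.268 (0.575%), 4 without eGFP.254 (0.647%), 5 without KD.255 (0.74%), 6 without eGFP.266 (0.905%), 8 without eGFP.250 (0.983%) and 9 without KD.251 (1.74%). Without both shallow libraries 8 of the 9 genes then tested passed limma (background 1.49%), all but Psmb10, and the same 8 passed edgeR (background 1.65%). That omission removed the lowest knockdown value of each of the 10 genes, as omitting KD.251 alone did for 9. Nothing is read from the counts of those fits. The mean of KD.253 and KD.249 leaves out the same values. It was 1.57 (Psmb10) to 16.8 (Nlrc5) times the control mean, with a median of 6.91. In 9 of the 10 both of these libraries lay above every control (background 10.0%). The library KD.251, in which Acss2 was near the controls (57.7 normalized counts, on 20 reads), was the lowest knockdown library for 9 of the 10 genes. The share of all genes with KD.251 lowest was not counted. The 10 genes stood there at 0.513 (Tapbp) to 3.30 (H2-D1) times the control mean (median 1.66). In KD.255, where Acss2 was lowest (15.6 normalized counts, on 1 read), the median ratio to the control mean was 2.95. Acss2 itself differed by -1.37 on the log2 scale (SE 0.33, limma adjusted p = 0.333). A link between Acss2 and the 10 genes was not tested. The 2 libraries with the highest numbers, eGFP.266 and eGFP.268, are both control libraries; what the numbers stand for is not given. Among the other 6 libraries edgeR passed 4 genes (B2m, H2-D1, Psmb8 and Nlrc5; background 0.715%) and limma 0, with H2-D1 at 2.09 (adjusted p = 0.283).

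Within untrained mice all 10 genes were again higher on average with the knockdown vector, with a median log2 difference of 2.29, against -0.05 over all genes. Psmb9 (3.10), Nlrc5 (3.01), B2m (2.33), H2-D1 (2.31), H2-K1 (2.297) and Psmb8 (2.28) were above 2, then came Tapbp (1.54), Tap2 (1.44), Psmb10 (1.02) and, with its 0 reads in KD.255, Tap1 (0.03). Tap1 stood at 2.66 by edgeR, 2.42 by DESeq2 and 2.76 by limma-voom in these mice, and none of these passed. Limma passed 0 of the 10 (background 0.0%; 9 of them and 571 of all genes had an unadjusted p under 0.05). By edgeR 1 passed, H2-D1 (background 0.181%), and by DESeq2 2 passed, H2-D1 and Nlrc5 (background 0.434%). That edgeR call was lost without KD.253, KD.255, eGFP.254 or eGFP.268, each of which left 1 library in its group. Omitting both shallow libraries likewise left KD.253 as the only untrained knockdown library, so nothing is read from the calls of that fit. The median over the 9 genes then tested was 2.86 by limma and 2.94 by edgeR. Without both shallow libraries limma passed 4 (B2m, H2-K1, H2-D1 and Nlrc5; background 0.487%) and edgeR those 4 with Psmb8 and Tapbp (background 0.77%).

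Within trained mice 8 of the 10 were higher with the knockdown vector, with a median of 1.64, against 0.00 over all genes. Nlrc5 (2.62), Psmb8 (2.26), H2-D1 (2.19), H2-K1 (1.93) and B2m (1.79) led, followed by Psmb9 (1.48), Tap1 (1.41) and Tap2 (0.90). Tapbp (-0.04) and Psmb10 (-0.01) were near 0 by limma, and 0.52 and 0.03 by edgeR. Limma passed 0 of the 10 (background 0.00789%; 5 of them and 299 of all genes had an unadjusted p under 0.05), edgeR passed 0 (background 0.0315%) and DESeq2 passed H2-D1 and Nlrc5 (background 0.244%). Without KD.251, the trained library near the controls, edgeR passed 5 of the 10 (B2m, H2-K1, H2-D1, Psmb8 and Nlrc5; background 0.764%). That fit left KD.249 as the only trained knockdown library. KD.251 was the lowest knockdown library for 9 of the 10 genes, so leaving it out had to raise their differences. Nothing is read from that count. The edgeR median was 2.68 in that fit, and 0.71 with KD.249 left out instead. Without both shallow libraries KD.249 was again alone, and the median over the 9 genes then tested was 2.77 by limma and 2.79 by edgeR. Among the 6 libraries with the lower numbers eGFP.250 was the only trained control library, and the edgeR median was 2.05. The untrained and trained vector comparisons share no libraries, but an exact test of 2 against 2 cannot reach p = 0.05, and all 4 groups share 1 estimate of the spread.

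**Figure D4:**
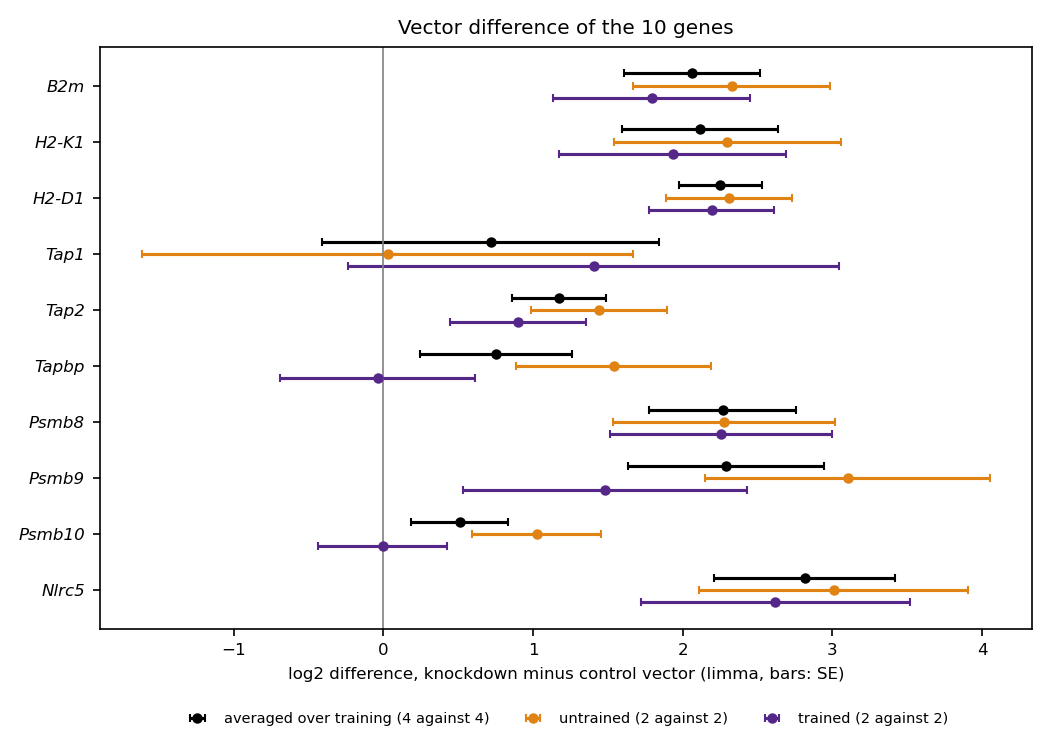
Log2 difference between knockdown and control vector (limma, bars are SE) of each of the 10 genes, averaged over training (black, 4 libraries against 4), in untrained mice (orange, 2 against 2) and in trained mice (purple, 2 against 2). Only Tapbp and Psmb10 in trained mice lie at or below 0, and the wide bars of Tap1 go with its 0 reads in KD.255.

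Training itself was asked about next, 30 min after the task. In control-vector mice the 10 genes had a median log2 difference (trained minus untrained) of 0.17, against 0.01 over all genes, with 7 higher and 3 lower. Limma, edgeR and DESeq2 passed 0 of the 10 (background 0.0% by limma and edgeR and 0.0315% by DESeq2), and 0 of the 10 had an unadjusted p under 0.05 with any of these tools. Tapbp was the only 1 of the 10 with both trained libraries (101 and 77.5 normalized counts) above both untrained libraries (68.6 and 45.7), an arrangement found in 14.5% of all genes. Its difference was 0.65 (SE 0.65, limma adjusted p = 1.00).

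In knockdown-vector mice the median training difference was -0.59, against 0.04 over all genes, with 2 of the 10 genes higher and 8 lower. Limma, edgeR and DESeq2 passed 0 of the 10 (background 0.0% with each), and 0 of the 10 had an unadjusted p under 0.05 with any of these tools. The direction of the median depended on the library: it was -1.74 without KD.249 and 0.53 without KD.253 by edgeR. Tap2, Psmb9 and Psmb10 had both trained libraries below both untrained ones, as had 14.0% of all genes. Psmb10 had 29.7 and 23.1 normalized counts in the trained libraries against 48.1 and 46.7 in the untrained ones, a difference of -0.83 (SE 0.43, limma adjusted p = 0.802). Tap1 gave 1.86 by limma, with its 0 reads in KD.255, and -0.14 by edgeR. Without KD.253, Tap1 passed limma at 4.68 (adjusted p = 0.0139) with KD.255 as the only untrained knockdown library, a fit in which 9.72% of all genes passed, so nothing is read from that call; edgeR passed 0 of all genes there.

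The difference between the training responses of the 2 vectors (interaction) had a median of -0.46 over the 10 genes, against 0.03 over all genes, with 9 of the 10 below 0. Limma, edgeR and DESeq2 passed 0 of the 10 (background 0.0% with each), and 0 of the 10 had an unadjusted p under 0.05 with any of these tools. The lowest limma values were those of Psmb9 (-1.62, SE 1.34), Tapbp (-1.58, SE 0.92) and Psmb10 (-1.03, SE 0.61), and Tap1 turned from 1.38 by limma to -0.63 by edgeR.

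The other genes of the pathway were read from lists by role, each given here as its difference between vectors averaged over training. For the counts of higher genes, 5613 of all 12681 tested genes were higher. Of 24 other class I heavy chains, 7 had enough reads to be tested and 4 of these were higher, with a median of 0.06; limma passed 0 and edgeR passed 3 (background 0.915%). H2-Q4, a non-classical chain, averaged 170 ± 129 normalized counts with the knockdown vector and 15.0 ± 5.69 with the control vector (SD, n = 4 each; log2 difference 3.00, edgeR adjusted p = 0.00544). H2-T23, which encodes the chain called Qa-1 that presents leader peptides of other class I chains, averaged 103 ± 86.1 and 14.6 ± 5.36 in the same order (2.21, edgeR adjusted p = 0.00573). H2-T24 averaged 48.4 and 13.8 (1.44, edgeR adjusted p = 0.0194). Mr1, which presents microbial vitamin metabolites, stood at -0.39 and did not pass. H2-Q5 had 34 reads and H2-M2 12 reads in the whole series, all of them in knockdown libraries; both were named after their values were seen. Of the 24, 6 had no read at all. In H2-Q4, 21.8% of exon stretches of 50 bases occur in another gene, and in H2-T23 13.6%, so their reads are also uncertain.

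Of 10 loading and endoplasmic reticulum genes 7 were higher, with a median of 0.10, and limma and edgeR passed 0. Erap1, the peptidase that trims peptides for class I, averaged 99.1 ± 44.7 normalized counts with the knockdown vector and 38.8 ± 6.95 with the control vector (SD, n = 4 each; 1.22, edgeR adjusted p = 0.0800). The tapasin relative Tapbpl (0.48), the chaperone Canx (0.14) and Bcap31 (-0.16) did not pass. Of 11 other subunits of the proteasome core 4 were higher (median -0.05), and of 7 activators and assembly factors 5 were (median 0.13), with 0 passing limma or edgeR. The interferon-inducible activator subunits Psme1 and Psme2 stood at 0.40 and 0.73 without passing.

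Among 14 transcription factors known to act on class I promoters 9 were higher, with a median of 0.20; limma passed 0 and edgeR passed 2 (background 0.915%), Irf9 among them. Irf9, a factor of type I interferon signalling, averaged 201 ± 78.4 normalized counts with the knockdown vector and 59.4 ± 13.3 with the control vector (SD, n = 4 each; 1.66, edgeR adjusted p = 0.00862). Stat2 (1.073, edgeR adjusted p = 0.0540) and Irf1 (1.04, edgeR adjusted p = 0.139) did not pass. Of 6 interferon ligands and receptors the 4 receptor chains were tested and were higher by a median of 0.15, with 0 passing limma or edgeR; the ligands Ifng and Ifnb1 had 1 read each in the whole series. Of 10 class II genes, which present to helper T cells, 4 were tested and 3 were higher (median 0.83), with 0 passing limma or edgeR. Cd74, the class II invariant chain, averaged 59.3 ± 57.5 and 14.7 ± 9.88 normalized counts with the knockdown and control vector (SD, n = 4 each; 1.35), and its value was 5.77 in KD.251, inside the control range of 4.44 to 27.4.

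Of the 10 genes 7 lie between 33915899 and 35267499 on chromosome 17 (GRCm38), in the histocompatibility region, which also holds many unrelated genes. Of 93 protein-coding genes annotated there, 49 others were tested. Their median log2 difference was -0.02, and 22 of them were higher, against a median of 2.12 and 7 of 7 higher for the members. Of all 12681 tested genes 5613 were higher. By edgeR 5 of the 7 members and 1 of the 49 others passed as higher, and 3 of those 5 members (Tap1, Psmb8 and Psmb9) had entered the tests only through their knockdown values. That 1 gene was the complement gene C4b, with 600 normalized counts with the knockdown vector and 109 with the control vector (2.18, edgeR adjusted p = 0.00667). In 2 of the 49 others, C4b and Aif1 (0.92), every knockdown library lay above every control library (background 2.28%). Of direct neighbours of members, Zbtb22, which overlaps Tapbp, stood at 0.07, and Ring1, beside H2-K1, at -0.22. Neither Zbtb22 nor Ring1 passed limma or edgeR. The genes beside Psmb9 and Tap2, H2-DMb1 and H2-Ob, had too few reads to be tested.

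**Figure D5:**
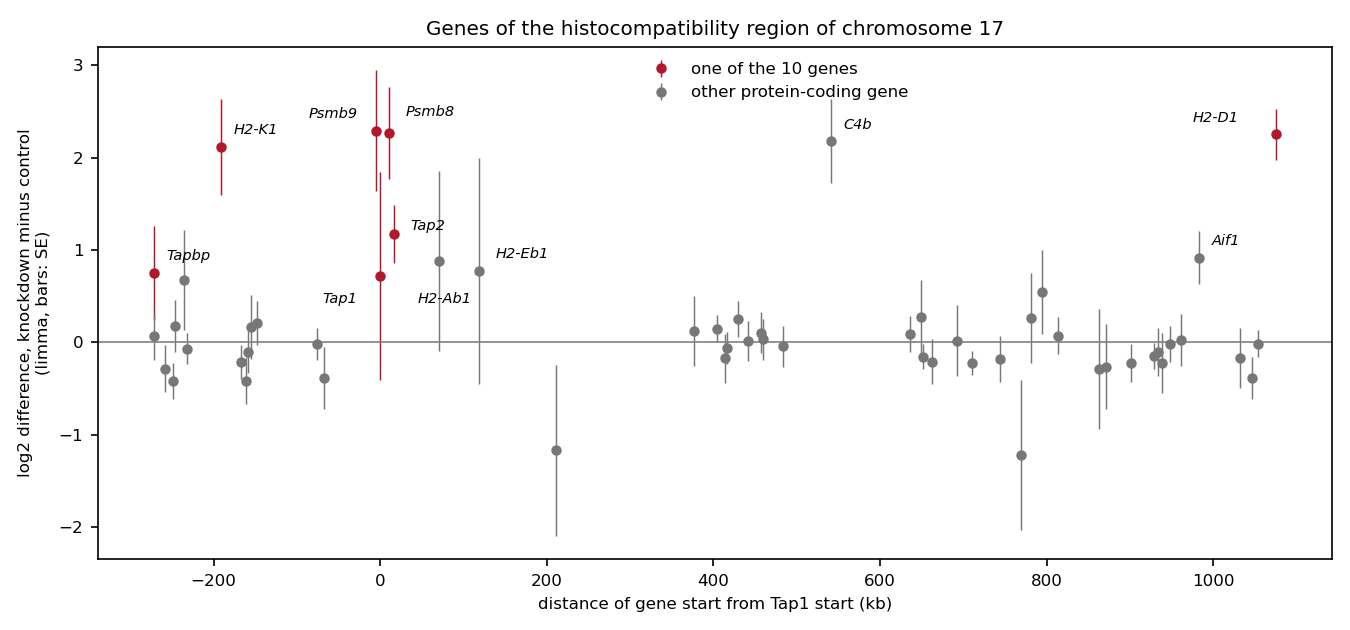
Log2 difference between knockdown and control vector (limma, bars are SE) of each tested protein-coding gene of the chromosome 17 interval, against the distance of its start from that of Tap1 in kb; red points are the 7 members and grey points the 49 others. The red points all lie above 0, while the grey points range from -1.22 (Hspa1b) to 2.18 (C4b) with a median of -0.02.

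Markers of other cell types moved with the 10 genes in part, and their part in the results was not tested. In these bulk samples more cells of a type and more RNA per cell cannot be told apart. All 10 microglia markers were higher with the knockdown vector, with a median of 0.86, against 5613 of all 12681 tested genes higher. In 4 of the 10 markers every knockdown library lay above every control library (background 2.28%). They summed to between 1341 (KD.251) and 1955 normalized counts per knockdown library, against 933 to 1123 per control library, and edgeR passed 2 (background 0.915%), C1qa (1.54, adjusted p = 0.00650) and C1qc (1.16, adjusted p = 0.0480). Aif1, Cx3cr1 and the other defining microglia markers were detected under both vectors. The 12 T and NK cell markers summed to 42.2, 77.8, 55.3 and 8.65 normalized counts in KD.253, KD.255, KD.249, KD.251, against 4.31 to 10.9 in the control libraries. None of the 12 had enough reads to be tested. Cd8a had 21 reads and Klrd1 5 reads in the knockdown libraries and 0 in the control libraries, and Cd3g had 48 of its 55 reads in knockdown libraries. Lck had 19 reads in knockdown and 27 in control libraries (means 7.15 and 3.36 normalized counts), and Ncr1 1 and 2 reads (means 0.128 and 0.275). All of these genes were named after their values were seen. The T and NK cell sums rest on 64, 5, 108 and 3 reads in KD.253, KD.255, KD.249, KD.251. The T and NK cell sum was higher in KD.253 and KD.249 than in KD.251, and highest in KD.255 (77.8, on 5 reads). KD.255 was the highest knockdown library for 1 of the 10 genes. Macrophage and monocyte markers summed to 21.7, 62.2, 22.0 and 17.3 in KD.253, KD.255, KD.249, KD.251, against 18.6 to 24.8 in control libraries. The 62.2 in KD.255 rests on 4 reads, and S100a8 had 0 reads throughout.

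Median differences of the other marker lists were -0.00 for 6 endothelial, -0.07 for 5 astrocyte, 0.13 for 5 oligodendrocyte and -0.21 for 7 neuronal genes. Choroid plexus markers, which show how much of that tissue was dissected along, summed to between 252 and 1866 normalized counts in knockdown libraries, against 221 to 58704 in control libraries. The highest of these sums was in eGFP.250, where the mean of the centred log2 values of the 10 genes was -0.64, the highest of the controls (-1.09 to -0.75 in the other 3). The part of choroid plexus in the results was not tested.

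The pattern of the 10 genes over the 8 libraries, as that mean, was 1.68, 0.34, 1.50 and -0.14 in KD.253, KD.255, KD.249, KD.251, against -1.09 to -0.64 in the control libraries. Among 6986 other genes with a mean of at least 100 normalized counts, the 5 most alike over the 8 libraries were Stat3 (Pearson's r 0.976), C4b (0.971), Trak2 (0.970), Slfn5 (0.968) and Irf9 (0.967). These coefficients are a description over libraries that fall into 2 vectors. Slfn5 averaged 152 normalized counts with the knockdown vector and 57.6 with the control vector, and Trak2, a motor adaptor for mitochondria, 2573 and 1703. Stat3 moved less, at 269 and 180 normalized counts in the same order.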

How the data were processed

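Polyadenylated RNA of the dorsal hippocampus was sequenced, and the authors deposited 1 normalized signal per gene and library. The submitters' processing notes name bcl2fastq 02.14.01.07, STAR 2.3.0 (aligner), HTSeq 0.6.1 (read counter), DESeq, bedtools and the build mm10; for the annotation and the strand setting the sources used here give nothing. Reads were recovered by dividing each column by its smallest step (100% of values came out whole within a relative tolerance of 1e-06). Of 24503 entries, 5 were counter summaries and were left out (16.4% to 20.3% of reads lay in no feature).

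Tests ran on log2(normalized count + 1) in limma 3.58.1 under R 4.3.3, with an intensity trend, on 12681 genes (mean of 10 or more). This fold scale understates changes of low genes. All groups contributed to the spread. The averaged comparison was additive in vector and training, and the others came from a fit with 1 mean per group (4 residual degrees of freedom and 5.13 from the prior). The threshold was a Benjamini-Hochberg adjusted p of 0.05 across those genes. On the recovered reads, edgeR 4.0.16, DESeq2 1.42.0 and limma-voom were run, and subunit ratios were compared by exact permutation (scipy 1.17.1). The fits were also run on simulated counts with a common spread setting for all genes and libraries. That run checks the code only and bears on no result here. Named genes were all members, up to 4 per list by size of moderated t, Acss2, chromosome 17 neighbours and the 5 most alike genes. Some cell type markers and heavy chains were named outside this rule. The values of 1 gene of the transcription factor list are not reported here. The members, lists and tests were chosen with earlier results of these data known. Exon lengths and coordinates come from GENCODE M21 (GRCm38).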

Additional observations from a re-analysis of the deposited data

Results flagged for a closer look

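Of 20 sets of 4 libraries (each of the 10 genes under each vector), 2 held a library far from the other 3, where chance gives about 1 in 20. Tap2 was 43.3 normalized counts in KD.251 (15 reads), against 95.7 to 110.1 in the other knockdown libraries. Tap1 was 3.99 normalized counts in eGFP.268 (9 reads), against 8.13 to 9.31 in the other control libraries.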

How the results depend on the processing

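For the averaged vector comparison, the number of the 10 genes passing (1 by limma) was 7 by edgeR, 8 by DESeq2, 9 by limma-voom with quality weights, 0 with the library set (eGFP.266 and eGFP.268 against the 6 lower-numbered libraries) as a term, 8 without both shallow libraries (also 8 by edgeR), and 0 among the 6 lower-numbered libraries (4 by edgeR). Leaving out both shallow libraries removed the lowest knockdown value of each of the 10 genes. The median was 1.16 with a pseudocount of 16. In untrained mice the number passing (0 by limma) was 1 by edgeR and 2 by DESeq2, and the median was 1.37 with a pseudocount of 16. In trained mice the number passing was 2 by DESeq2. The median in trained mice was 2.77 without both shallow libraries (2.79 by edgeR), with KD.249 as the only trained knockdown library. The cause was not tested.

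Directions turned as follows. Tap1 in untrained mice (0.03 by limma, 2.66 by edgeR) was -0.37 with a pseudocount of 0.5, -0.26 with the set term and -0.45 among the lower-numbered libraries. Tapbp in trained mice was 0.027 (pseudocount 16), 0.52 (edgeR), 0.45 (DESeq2), 0.52 (voom), 1.14 (without both shallow libraries), 1.15 (the same by edgeR) and 0.36 (edgeR, lower-numbered). Psmb10 in trained mice was 0.0010 (TMM scaling), 0.033 (edgeR), 0.018 (DESeq2), 0.12 (voom), 0.17 and 0.16 (without both shallow libraries, limma and edgeR). The training difference of Tap1 in knockdown mice was -0.14 (edgeR and voom), -0.016 (DESeq2) and -0.15 (edgeR, lower-numbered). Its interaction was -0.63, -0.48 and -0.71 by edgeR, DESeq2 and voom, -0.41 and -0.42 without both shallow libraries (limma, edgeR) and -0.23 by edgeR among the lower-numbered. The ratio differences were 3.37 (Psmb8/Psmb5) and 2.96 (Psmb9/Psmb6) without both shallow libraries, where no p could pass.

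With 1 library left out (limma and edgeR), the number passing ranged over 0 to 9 for the averaged comparison, 0 to 7 in untrained and 0 to 5 in trained mice, and 0 to 1 for training in knockdown mice; medians ranged over 1.68 to 2.63, 1.44 to 2.96, 0.71 to 2.68, -1.74 to 0.53, -0.06 to 0.47 for training in control mice and -1.90 to 0.51 for the interaction. Tap1 ranged over -0.28 to 2.64 averaged, -6.23 to 3.27 untrained, -1.75 to 8.72 for training in knockdown mice and -2.24 to 8.26 for the interaction; Tapbp in trained mice over -1.23 to 1.14 and Psmb10 over -0.28 to 0.35. Ratio differences ranged over 1.75 to 2.79, 2.46 to 3.13 and 0.45 to 1.05. Psmb9 was not tested without both shallow libraries or without KD.253 or KD.255, where its mean was too low. The comparisons within the lower-numbered libraries, edgeR without both shallow libraries and edgeR with a library left out were added after seeing the data. No paired analysis was possible because the column names carry no replicate number of the labels. With 2 libraries a group and 1 of them shallow in each knockdown group, depth limits the lowest genes: Tap1, Psmb8, Psmb9, Psmb10 and Nlrc5 had 0 to 3 reads in KD.255 and 3 to 9 in KD.251.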
